A study of Mus musculus with 7 samples.

Results

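The cytosolic ribosomal protein genes were followed across the cell classes of mouse brain microvessels. The members were chosen by symbol (Rpl or Rps with a number, and Rplp0, Rplp1, Rplp2 and Rpsa, without the S6 kinases and the pseudogenes) and selected on their summed UMIs, of which at least 100 over the 7 libraries were required. UMIs are unique molecular identifiers, each standing for 1 captured RNA molecule. Of 32285 genes counted, 83 had a matching symbol and 81 became members, 49 of the large and 32 of the small ribosomal subunit. The lowest member was Rpl39l, a copy of Rpl39, with 444 UMIs, and the next was Rpl7l1 with 11695, whereas Rpl3l with 21 UMIs and Rpl10l with 2 UMIs fell outside. The members held 18717609 of 187232453 UMIs, or 10.0%. Among the members with most UMIs were Rps29 (621820), Rpl38 (489662), Rpl41 (462167), Rpl13 (426313) and Rpl37a (399797).

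The 7 droplet single-cell libraries came from untreated C57Bl6 mice, each from 1 cerebral hemisphere without the cerebellum that was digested with collagenase and enriched by capture on beads against CD31, a surface protein of endothelial cells. Of these, 3 came from mice of 12 months and 4 from mice of 3 months, 1 animal a library. Libraries of 12 months were singly indexed with Cell Ranger 4.0.0 named in the file, those of 3 months dually indexed with version 6.1.1. Age, index type, counting version and sequencing depth therefore cannot be told apart, and smooth muscle cells, pericytes and microglia are those that came through the endothelial capture.

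Ribosomal proteins are built into the small and large subunits of the cytosolic ribosome, which decodes mRNA and forms peptide bonds. Their mRNAs are among the most abundant of most cells and rise with growth. Many of them start with a C followed by pyrimidines, the terminal oligopyrimidine (TOP) motif, through which their translation follows nutrient and growth signals. A few members also bind Mdm2, the ubiquitin ligase of p53, or have a paralog that can take their place in the ribosome.

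The start of the transcript was looked up for the members, since the TOP motif is the sequence they are known to share. RefSeq (build GRCm38.p6) gave a start for 61 of the 81 members. A C at the listed start followed by at least 4 pyrimidines (C or T, on the gene's strand) was found in 13 of them (21.3%) and in 813 of 27025 genes (3.01%). Such a run starting within 5 bases of the listed start was found in 29 members (47.5%) and in 21.2% of all genes. Among other genes of translation, the run stood at the start in 4 of 14 elongation factor and ribosome-associated genes (28.6%), in 1 of 23 initiation factor genes (4.35%), in 0 of 33 ribosome biogenesis genes and in 0 of 69 mitochondrial ribosomal protein genes. The windows below hold 15 bases before and 15 bases from the listed start, 5′ to 3′ on the gene's strand, with the run in capitals, and are shown for members that the comparisons turn on. Rpl38, Rps27, Rpl15, Rps18 and Rplp2 have the run at the listed start, Rpl13a, Rps27l and Rpl22l1 have it a few bases downstream, and none was found in this window for Rpl22, Rpl7l1 and Rpl10.
Rpl38 (chr11:114668565-114668594, plus strand): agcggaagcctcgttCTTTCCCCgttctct
Rps27 (chr3:90213634-90213663, minus strand): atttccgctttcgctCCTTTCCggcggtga
Rpl15 (chr14:18270972-18271001, minus strand): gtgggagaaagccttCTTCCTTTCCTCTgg
Rps18 (chr17:33955651-33955680, minus strand): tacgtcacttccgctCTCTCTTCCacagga
Rplp2 (chr7:141447636-141447665, plus strand): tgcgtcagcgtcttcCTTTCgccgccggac
Rpl13a (chr7:45128731-45128760, minus strand): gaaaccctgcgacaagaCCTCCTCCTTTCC
Rps27l (chr9:66946071-66946100, plus strand): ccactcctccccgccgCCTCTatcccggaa
Rpl22l1 (chr3:28805493-28805522, plus strand): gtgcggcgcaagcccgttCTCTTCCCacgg
Rpl22 (chr4:152325711-152325740, plus strand): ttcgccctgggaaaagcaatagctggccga
Rpl7l1 (chr17:46782642-46782671, minus strand): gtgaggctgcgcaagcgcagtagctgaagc
Rpl10 (chrX:74270801-74270830, plus strand): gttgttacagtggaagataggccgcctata
The paralog Rpl22l1 thus carries a run near its listed start and its parent gene Rpl22 does not, while of the pair Rps27l and Rps27 both do. No match says only that these letters are not in the window. Of the other listed starts, the second one of Rpl22 also lacked the run.

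The libraries held 8706961 to 44861008 UMIs, and 3795 to 8912 cells each passed the filters (37176 in all). Members took 10.8%, 9.77% and 10.4% of the UMIs of all barcodes in the 3 libraries of 12 months, and 12.0%, 8.20%, 10.1% and 10.2% in the 4 libraries of 3 months. Clusters were named from marker genes as capillary-like, arterial-like, venous-like, smooth muscle-like, pericyte-like, microglia-like and so on, and the suffix is left out from here. Unnamed clusters held 48.3% to 51.7% of the endothelial cells of each library and entered no class. Marker genes of endothelium summed to 14934 to 22315 CPM (UMIs of a gene with each sum scaled to one common total) in capillary cells. They were at 7555 to 12231 CPM in pericytes, 608 to 1699 CPM in smooth muscle cells and 261 to 1315 CPM in microglia, where their part in the results was not tested except as stated. At most 24 barcodes were shared by a pair of libraries.

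Many ribosomal protein genes have near-identical copies, which limits how reads can be assigned to them. Members lay on 19 chromosomes, 14 of them on chromosome 7. Of the 60-base windows in the last 300 bases of the transcript, 54 of 81 members share at least 1 with another gene and 27 share none. All windows are shared by 4 members, Rps27, Rpl10 and Rpl36a among them, so their levels are uncertain. The share is 63.9% for Rpl38, and Rpl22, Rps27l, Rpl7l1, Rpl13a, Rpl5, Rps20, Rpsa and Rplp0 share none. Of the copies outside the list, Rpl36al had 56290 UMIs and Rps27rt 8480.

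Venous endothelial cells had the largest share of their counted RNA in ribosomal protein genes among the 6 classes compared (venous, arterial and capillary endothelium, smooth muscle, pericytes and microglia). The member share of all UMIs was 15.4%, 14.1% and 15.3% in the 12-month libraries and 17.0%, 11.9%, 13.7% and 14.9% in the 3-month libraries, with a mean of 14.6% ± 1.59 (SD, n = 7). Capillary cells gave 10.5%, 8.70% and 9.32% at 12 months and 9.31%, 5.95%, 7.05% and 7.57% at 3 months, with a mean of 8.34% ± 1.56 (SD, n = 7). In each of the 7 libraries the venous share exceeded the capillary share, by 1.47 to 2.00 times, and the venous and capillary ranges did not overlap.

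The other classes lay closer to the capillary level. Arterial cells were at 10.1% ± 1.63, smooth muscle cells at 8.97% ± 1.06, pericytes at 8.79% ± 1.63 and microglia at 8.19% ± 1.18 (SD, n = 7 each). The arterial share was above the capillary share of the same library in 7 of 7 libraries, by 1.02 to 1.37 times. The venous share was above the arterial share in 7 of 7, by 1.29 to 1.61 times. The capillary class joined clusters of unlike member share, described below, and the arterial mean lay within the library range of the larger one. Smooth muscle cells gave 8.92%, 8.02% and 8.93% at 12 months and 10.9%, 7.54%, 9.32% and 9.15% at 3 months. Pericytes gave 9.65%, 7.28% and 7.23% at 12 months and 11.8%, 7.76%, 8.88% and 8.90% at 3 months. Both classes lay above the capillary cells of the same library in the 4 libraries of 3 months and below them in the 3 libraries of 12 months. Against the larger capillary cluster alone, described below, both were lower in each library. Microglia were above the whole capillary class in 3 of 7 libraries, 1 of 12 months and 2 of 3 months. The cluster named erythroid, rich in hemoglobin mRNA, also had 9 capillary marker genes raised 2-fold, and the part of endothelial RNA was not tested. Its member share was 6.45% ± 0.700 (SD, n = 7). Lymphocytes stood far above all of these, B cells at 28.4% ± 3.17 (SD, n = 6) and T and NK cells at 31.5% ± 4.69 (SD, n = 3), and choroid plexus epithelium was lowest at 5.10% ± 0.418 (SD, n = 3).

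**Figure D1:**
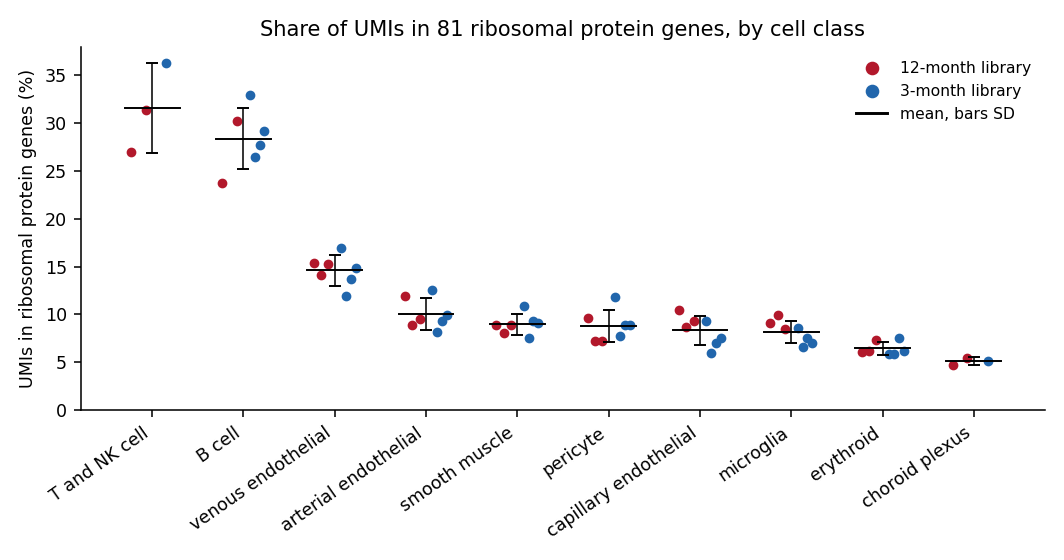
Share of all UMIs in the 81 ribosomal protein genes (percent, vertical axis) in each cell class (horizontal axis), 1 point a library with at least 20 cells of the class, lines for the mean and bars for the SD. Lymphocytes lie near 30% and the venous mean is 14.6%. The means of the arterial, capillary, smooth muscle, pericyte and microglia classes lie between 8.19% and 10.1%.

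The libraries kept a like order within classes. Among the 3-month libraries, library 1 had the highest share in 7 of 8 classes and library 2 the lowest in 7 of 8. The order was not the same for every member. Rpl5, which binds Mdm2, had its lowest capillary level in 3-month library 1 (225.9 CPM, against 321.0 to 368.4 CPM in the other 3-month libraries and 460.7 to 496.6 CPM at 12 months). Rpl13a was likewise lowest there, at 550.2 CPM. In the same library and class Rpl38 was highest, at 4467 CPM. Each comparison of classes below was therefore made within libraries.

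The share was also read against the UMIs per cell, because the classes differed in it: the median cell had 9368 UMIs among venous, 5047 among smooth muscle, 4859 among arterial, 3022 among microglia, 2811 among pericytes and 2330 among capillary cells (means over libraries). A venous cell held 1667 member UMIs and a capillary cell 194 on average. Within the venous class the share stayed between 13.6% and 15.0% from the cells of fewer than 1000 UMIs to those of 16000 and more. When cells of both classes were matched on UMIs per cell, the venous share was 9.91% to 14.9% and the capillary share 6.26% to 11.8%, and the venous one was higher in 7 of 7 libraries. With the same matching the arterial share was higher than the capillary in 5 of 7 libraries, smooth muscle in 4, pericytes in 2 and microglia in 2. Both capillary clusters described below entered this matching.

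Pericytes, the mural cells of capillaries, were the class whose share moved most with UMIs per cell. It was 4.04% in cells of fewer than 1000 UMIs, 4.52%, 5.85% and 7.55% in the next bins and 9.53% in cells of 8000 up to 16000 UMIs. The endothelial markers rose along the same bins, from 1168 through 1811, 4831 and 13210 to 13882 CPM. Pericytes with under 0.25% of their UMIs in endothelial markers (31.2% to 64.4% of the class) had a member share of 4.17% to 5.32%, and the remaining pericytes of the same libraries 7.73% to 13.0%, without overlap. The former also held fewer UMIs, with medians of 738 to 2703 against 1498 to 18463.

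**Figure D2:**
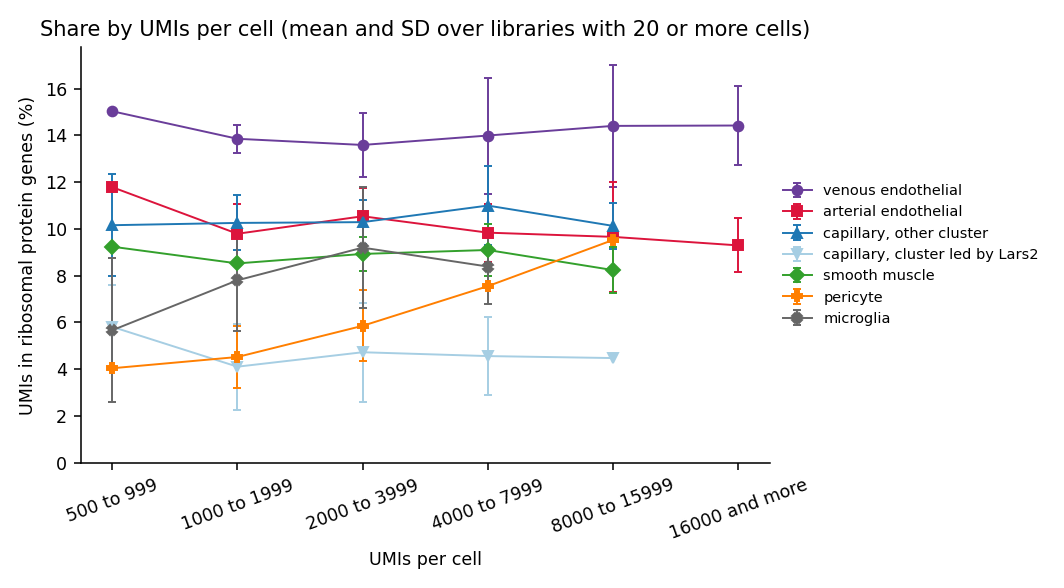
Mean share of UMIs in ribosomal protein genes (percent, vertical axis) against UMIs per cell in bins (horizontal axis), 1 line a class, with the 2 capillary clusters apart and bars for the SD over libraries. The venous line stays between 13.6% and 15.0%, and the pericyte line runs from 4.04% to 9.53%.

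The capillary class joined 2 clusters that differed in the members. Variable genes for the clustering were taken without ribosomal protein, mitochondrial and hemoglobin genes. The larger cluster, led by Car4, Cdkn2b and Slc16a1, had a member share of 10.7%, 9.22% and 9.77% at 12 months and 12.2%, 9.30%, 10.5% and 10.7% at 3 months. The venous share exceeded that of this larger cluster in each library, while the smooth muscle and pericyte shares were below it in each. The smaller one, led by Ivns1abp, Gm26917 and Lars2 (the mitochondrial leucyl-tRNA synthetase), gave 8.13%, 5.81% and 6.95% at 12 months and 5.35%, 2.87%, 3.62% and 3.65% at 3 months. It was lower in each library and its ages did not overlap. Median UMIs per cell were alike, 827 to 3656 in the cluster led by Lars2 and 849 to 3882 in the other.

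Nearly all members took part in this difference between capillary clusters. The level was lower in the cluster led by Lars2 in 7 of 7 libraries for 78 of 81 members, against 21.7% of all genes above 50 CPM. The log2 ratio of the mean levels had a median of -0.98 over members, from -1.23 for Rpl9 to -0.19 for Rpl7l1. Rpl9 was at 700.3 CPM ± 334 in the cluster led by Lars2 and at 1641 CPM ± 382 in the other (SD, n = 7). Lars2 itself ran the other way, at 5607 CPM ± 4294 against 2305 CPM ± 1907, and so did Gm26917, at 307.0 CPM ± 114 against 67.8 CPM ± 30.4. Fos, an immediate early gene, was at 453.5 CPM ± 571 against 1475 CPM ± 1132. These clusters were formed on the same cells, so the values are a description. The cluster led by Lars2 held 10.7%, 16.8% and 17.0% of capillary cells at 12 months and 46.8%, 52.7%, 54.7% and 52.1% at 3 months, without overlap of the ages, so that the counts of members and of gene lists against the capillary class are given also without it.

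The arterial class also joined 2 clusters. The smaller, led by Mgp, Fbln5, Cytl1 and Clu and with the elastic fibre genes Eln and Bgn among its leading genes, had a member share of 13.7% ± 2.19, and the larger, led by Gkn3, of 8.98% ± 1.13 (SD, n = 7). The lowest library of the smaller, at 11.6%, lay above every library of the larger. Of the members, 76 of 81 were higher in the smaller cluster in 7 of 7 libraries, against 11.4% of all genes above 50 CPM, with a median log2 ratio of 0.58. Rps28 had the largest ratio, 1.05, with 2409 CPM ± 911 against 1159 CPM ± 413 (SD, n = 7).

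**Figure D3:**
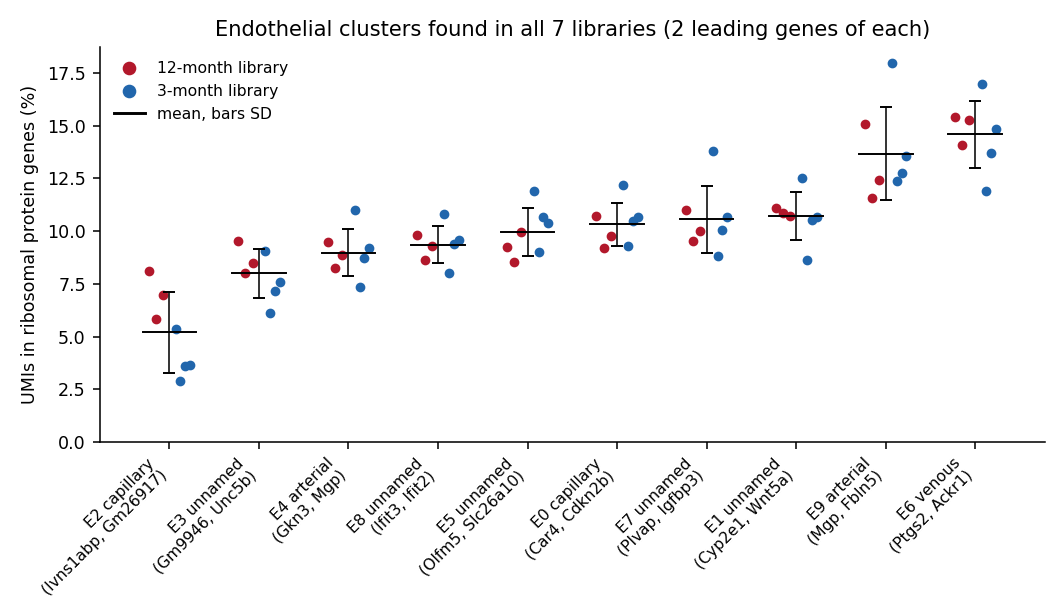
Share of UMIs in ribosomal protein genes (percent, vertical axis) in the endothelial clusters present in all 7 libraries (horizontal axis, with 2 leading genes), 1 point a library, lines for the mean and bars for the SD. The cluster led by Ivns1abp, Gm26917 and Lars2 is lowest, and the venous cluster and the arterial cluster led by Mgp and Fbln5 are highest.

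Between venous and capillary cells nearly every member was higher in venous cells. Of the 80 members that passed the filter on low counts, 79 were higher and 0 lower (edgeR quasi-likelihood test on sums of counts per class and library, with the library as a block, Benjamini-Hochberg adjusted p under 0.05), where 21.7% of all genes tested were higher and 21.0% lower. Rpl39l did not pass the filter. At an unadjusted p under 0.05 and by DESeq2 the members lower also numbered 0. The median log2 difference over members was 0.88. Without the cluster led by Lars2, 75 of 80 were higher, with a median of 0.49 and 22.0% of all genes higher.

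Rps20, a protein of the small subunit, was among the members that differed most. It ranged from 2659 CPM through a median of 3488 to 4737 CPM over the venous sums and from 1156 through 1441 to 2019.5 CPM over the capillary sums. The ranges did not overlap, and the log2 difference was 1.24 (SE 0.08, edgeR adjusted p = 6.48e-10). Rps28 was at 1.21, and Rpl10 and Rpl36a at 1.19 each. At the other end were Rpl38 at 0.49 (edgeR adjusted p = 0.00019), Rpl13a at 0.46, Rpl27 at 0.45 and Rps27l at 0.37 (edgeR adjusted p = 0.0113). Leaving out the cluster led by Lars2, Rpl38 was at 0.13 and Rps27l at -0.047, and neither passed. Rpl7l1, a paralog of Rpl7, was the only member tested that missed the threshold, at 0.18 (edgeR adjusted p = 0.188).

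Arterial cells also had most members above capillary cells, by less. Here 59 of 80 were higher and 1 lower, beside 22.5% and 21.5% of all genes tested, and the median log2 difference was 0.31. Among the highest were Rpl22l1 at 0.74, Rpl10 at 0.67, Rpl3 at 0.60 and Rps28 at 0.56, and Rpl38 was the member that fell. This count rested on the capillary cluster led by Lars2: without it 9 members were higher and 15 lower, with a median of -0.06, where 20.5% of all genes were higher and 19.4% lower. With the 12-month libraries alone 7 members were higher, beside 14.7% of all genes.

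Smooth muscle cells, the contractile cells of arterioles, had 47 of 80 members above capillary cells and 1 below, where 31.3% of all genes were higher and 33.5% lower, and the median log2 difference was 0.37. Rpl10 was highest at 1.30 and Rpl22l1 next at 1.27, followed by Rpl10a at 0.95, Rpl12 at 0.87 and Rpl21 at 0.82. The median library had 932.1 CPM of Rpl10 in smooth muscle cells (597.6 to 1165 CPM) and 419.6 CPM in capillary cells (235.7 to 610.5 CPM), and smooth muscle was higher in 7 of 7 libraries (edgeR adjusted p = 6.48e-09). Rps29 at -0.04, Rpl11 at 0.04 and Rps19 at 0.08 did not pass. Without the cluster led by Lars2 the counts were 21 higher and 9 lower, with a median of 0.02, where 31.0% of all genes were higher and 31.6% lower. The 3-month libraries alone gave 75 members higher, beside 31.8% of all genes, and the 12-month libraries alone 18, beside 24.1%. With total UMIs in place of TMM scaling 26 were higher.

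**Figure D4:**
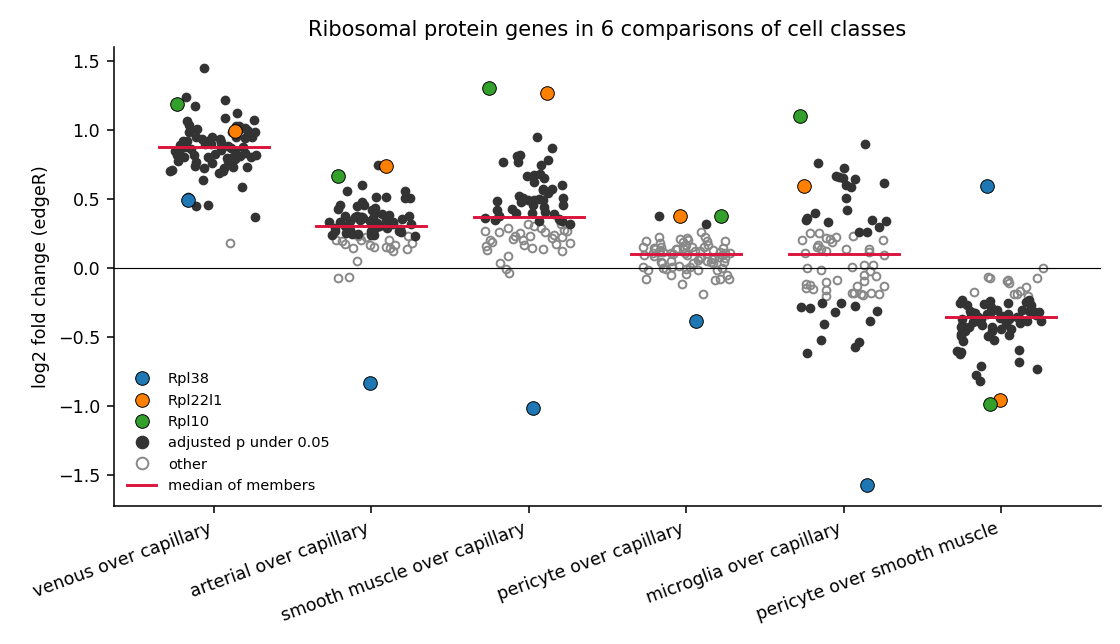
Log2 fold change of the 80 tested members (vertical axis) in each of 6 comparisons of cell classes (horizontal axis), filled points past an adjusted p of 0.05, open points not, red lines for the median, and Rpl38, Rpl22l1 and Rpl10 coloured. The venous cloud lies around 0.88, and Rpl38 lies apart below the others in arterial, smooth muscle and microglial cells.

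Microglia, the resident macrophages of the brain, showed no common direction. Of 80 members 23 were higher and 14 lower than in capillary cells, where 32.6% of all genes were higher and 34.3% lower, so the shares of members lay below the background in both directions. Rpl10 was highest at 1.10 (edgeR adjusted p = 8.51e-08), and Rps9 at 0.90, Rplp1 at 0.76 and Rpl7l1 at 0.66 were also among the highest. Below capillary cells were Rpl38 at -1.57, Rps19 at -0.62, Rpl41 at -0.57, Rps27l at -0.54 and Rpl31 at -0.52. Without the cluster led by Lars2, 8 were higher and 40 lower, with a median of -0.28, where 34.0% and 35.1% of all genes were.

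Between pericytes and capillary cells the counts ran in opposite directions at the 2 ages. With the 3-month libraries alone 75 of 80 members were higher in pericytes and 0 lower, with a median log2 difference of 0.35, where 19.7% of all genes were higher. With the 12-month libraries alone 0 were higher and 24 lower, with a median of -0.29, where 13.0% of all genes were lower. This change with age was not tested as an interaction, and the ages also differed in the make-up of the capillary class given above. Over the 7 libraries together, higher were 4 of 80 (Rpl22l1 and Rpl10 at 0.38 each, Rpl23a at 0.37 and Rpsa at 0.31), and lower was 1, Rpl38 at -0.38, where 16.5% of all genes were higher and 15.1% lower. When that cluster led by Lars2 was left out, 0 members were higher and 61 lower, with a median of -0.27 and 16.7% of all genes lower. In the 5 libraries with at least 20 pericytes with few endothelial marker UMIs, those pericytes had 75 members lower than capillary cells, with a median of -0.83 and 22.4% of all genes lower. Leaving out 1 library gave between 1 and 7 members higher.

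Between the 2 mural classes the members were lower in pericytes. Of 80 members 66 were lower than in smooth muscle cells and 1 higher, where 24.8% of all genes were lower and 27.1% higher, and the median log2 difference was -0.35. Rpl10 at -0.99, Rpl22l1 at -0.96, Rpl10a at -0.82, Rpl21 at -0.78 and Rplp0 at -0.73 were lowest, and Rpl38 was the member that was higher, at 0.59 (edgeR adjusted p = 1.60e-05). In pericytes with few endothelial marker UMIs 79 members were lower, with a median of -1.12 and 22.1% of all genes lower, and Rpl38 was at -1.05. With total UMIs in place of TMM scaling the median of all genes moved to 0.30 and 13 members were lower and 4 higher, so the direction of the list rests on the scaling.

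Rpl38, a small protein of the large subunit known for its part in the translation of Hox mRNAs in the embryo, did not move with the other members. Its level over libraries (lowest, median, highest) was 2422, 3986 and 6974 CPM in venous cells and 1714, 2846 and 4467 CPM in capillary cells. It was 1658, 2114 and 4508 CPM in pericytes, and 1147, 1485 and 2740 CPM in arterial cells. Smooth muscle cells had 791.4, 1244 and 2088 CPM and microglia 624.0, 923.8 and 1500.0 CPM. In arterial, smooth muscle and microglial cells Rpl38 was below the capillary level of the same library in 7 of 7 libraries and in pericytes in 6 of 7, and in venous cells it was above it in 7 of 7, although the ranges over libraries overlapped for venous, arterial, pericyte and smooth muscle cells.

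The log2 difference of Rpl38 from capillary cells was -0.83 in arterial (SE 0.10, edgeR adjusted p = 1.90e-07), -1.01 in smooth muscle (SE 0.13, edgeR adjusted p = 4.80e-07) and -1.57 in microglial cells (SE 0.12, edgeR adjusted p = 1.10e-09). It was negative under every alternative tried for these 3 comparisons. Measured against the sum of all members instead of all genes, it was -0.38 in venous, -0.44 in pericytes, -1.12 in arterial, -1.36 in smooth muscle and -1.64 in microglial cells. On the same scale Rps20 was 0.36 higher in venous cells (edgeR adjusted p = 1.69e-05). Pericytes as a class carried endothelial markers, and in those with few such UMIs Rpl38 was below smooth muscle cells, as given above. The part of endothelial RNA in the pericyte values of Rpl38 was not tested. Since 63.9% of the windows near its end also occur in another gene, the level of Rpl38 is uncertain, and whether this differs between classes was not tested.

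**Figure D5:**
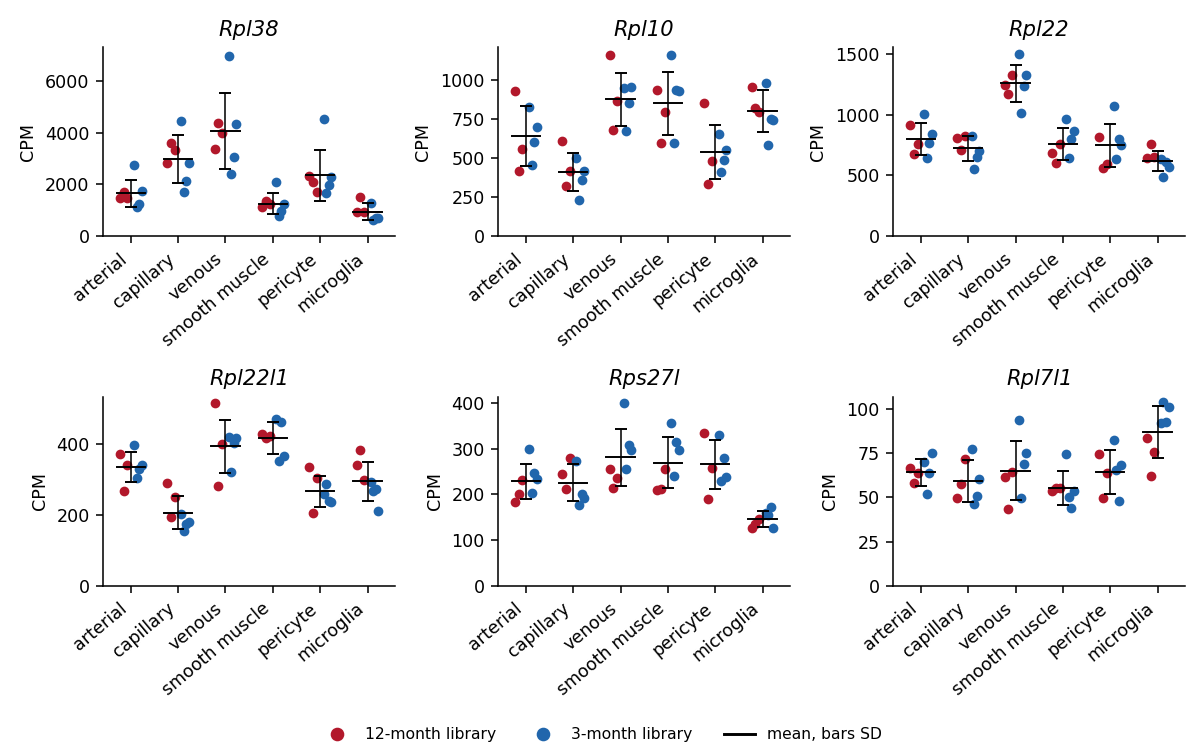
Level (CPM, vertical axes) of 6 members in 6 cell classes, 1 point a library (red for 12 months, blue for 3 months), lines for the mean and bars for the SD. Rpl38 is lower in arterial, smooth muscle and microglial cells than in capillary and venous cells, and Rpl22l1 is lower in capillary cells than in smooth muscle cells.

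Of the paralogs, Rpl22l1 had a higher log2 difference from capillary cells than its parent gene Rpl22 in venous, arterial, smooth muscle and microglial cells. The protein of either can fill the same place in the ribosome. Rpl22l1 ranged (lowest, median, highest library) over 156.1, 193.8 and 290.4 CPM in capillary cells and over 352.0, 422.1 and 469.7 CPM in smooth muscle cells, without overlap. It was 282.9, 402.4 and 514.5 CPM in venous cells, 267.6, 340.8 and 397.5 CPM in arterial cells and 210.5, 293.1 and 382.0 CPM in microglia. The log2 difference from capillary cells was 1.27 in smooth muscle (SE 0.13, edgeR adjusted p = 4.86e-09) and 0.74 in arterial cells (SE 0.09, edgeR adjusted p = 6.06e-07), where Rpl22 gave 0.29 (edgeR adjusted p = 0.0551) and 0.15 (edgeR adjusted p = 0.152). In venous cells both rose, Rpl22l1 by 0.99 and Rpl22 by 0.86, and in microglia Rpl22l1 rose by 0.60 while Rpl22 was at -0.13. Leaving out the cluster led by Lars2, Rpl22l1 was at 0.93 in smooth muscle, 0.37 in arterial and 0.62 in venous cells, which passed, and at 0.24 in microglia, which did not (edgeR adjusted p = 0.0663). Rpl22 was then at -0.05 in smooth muscle cells, 0.48 in venous cells, -0.21 in arterial cells and -0.49 in microglia, of which the first did not pass. The difference between the paralog and its parent was not tested. Rpl22 shares no 60-base window near its end with another gene and Rpl22l1 shares 61.8% of them.

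Rps27l, a paralog of Rps27 that p53 is known to induce, was lowest in lymphocytes and microglia. It was 79.4 CPM ± 32.5 in B cells (SD, n = 6), 146.1 CPM ± 17.9 in microglia and 225.7 CPM ± 40.5 in capillary cells (SD, n = 7), while Rps27 was at 8808 CPM ± 1342 in B cells and 1537 CPM ± 433 in capillary cells. Microglia were below capillary cells in Rps27l in 7 of 7 libraries. Rpl7l1 was higher in microglia than in capillary cells (87.1 CPM ± 14.7 against 59.1 CPM ± 11.8) and did not pass in any of the other 5 class comparisons. Rpl39l lay between 0 and 37.1 CPM in every class and library, and Rpl39 between 653.1 and 2366 CPM in the 6 classes compared.

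The proteins of the ribosomal stalk, which recruits translation factors, are Rplp0, Rplp1 and Rplp2, and Rpsa is the small subunit protein also known as the laminin receptor. All 4 were higher in venous (Rplp0 at 1.12, Rpsa at 1.01, Rplp2 at 0.84 and Rplp1 at 0.73) and in arterial cells (Rpsa at 0.55, Rplp2 at 0.37, Rplp1 at 0.34 and Rplp0 at 0.28). In smooth muscle cells Rplp0 at 0.74, Rpsa at 0.68 and Rplp2 at 0.52 were higher, and Rplp1 at 0.29 did not pass. In microglia the 3 stalk proteins were higher, Rplp1 at 0.76, Rplp0 at 0.59 and Rplp2 at 0.42, and Rpsa at 0.12 did not pass. Leaving out the cluster led by Lars2, 4 of 4 stayed higher in venous cells. In arterial cells Rpsa at 0.19 was then the only one of the 4 that passed, with Rplp2 at 0.01, Rplp1 at -0.0165 and Rplp0 at -0.14. In smooth muscle cells Rplp0 and Rpsa passed and in microglia Rplp1 did. Of the members that bind Mdm2 (Rpl5, Rpl11, Rpl23, Rpl26, Rps7 and Rps27a), 6 of 6 were higher in venous and in arterial cells, with medians of 0.85 and 0.25, beside 21.7% and 22.5% of all genes. In smooth muscle cells and in microglia 2 of 6 were higher, with medians of 0.30 and 0.14, which is near the 31.3% and 32.6% of all genes. Without that cluster 6 of 6 were higher in venous cells (median 0.48), 0 in arterial cells (-0.12), 1 in smooth muscle cells with 1 lower (-0.06), and 0 in microglia with 2 lower (-0.24). Among smooth muscle cells Rpl5 was at 0.65 and Rpl11 at 0.04.

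Between ages, 9 of 80 members were higher in capillary cells of 12 months than of 3 months (edgeR, adjusted p under 0.05). The log2 difference was positive for 80 of 80 members with a median of 0.44. Of all genes tested 2.60% were higher and 2.41% lower at 12 months. At an unadjusted p under 0.05 there were 46, and DESeq2 called 38. The shares of all genes above are at the adjusted threshold of edgeR, and none is given for these 2 counts. The 9 were Rpl13a, Rps15, Rps14, Rpl23a, Rps12, Rpl12, Rpl17, Rplp2 and Rpl14, and for each the ages did not overlap. Rpl13a had 973.4, 1358 and 1270.4 CPM in the 12-month libraries and 550.2, 776.8, 779.8 and 706.6 CPM in the 3-month libraries, a log2 difference of 0.86 (SE 0.20, edgeR adjusted p = 0.0224). Rps15 followed with 863.1 CPM ± 104 against 508.0 CPM ± 75.4 and a difference of 0.84 (edgeR adjusted p = 0.0185), and Rps14 with 0.83 (edgeR adjusted p = 0.0146). Rps2 at 0.16, Rpl24 at 0.14 and Rps26 at 0.06 differed least and did not pass.

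This difference between ages moved with the make-up of the capillary class, most of which was the cluster led by Lars2 in 3 of 4 libraries of 3 months and the other cluster at 12 months. Without the cluster led by Lars2, 0 members passed by edgeR, beside 1.65% of all genes, and the median was -0.08. At an unadjusted p under 0.05 there were 3. No share of all genes is given for that p or for the counts with a library left out. Leaving out 3-month library 1 raised the count to 56, while 0 remained without 12-month library 2 or without 3-month library 4, 2 without 12-month library 3, and 3 without 12-month library 1 or without 3-month library 3. Immediate early genes also differed between the ages. In capillary cells 16 of 21 tested genes of that list were higher at 12 months, beside 2.60% of all genes. Their median was 1.29 on the log2 scale, with Fos at 2.81 and Socs3 at 2.08. Atf3 of that list was also higher at 12 months in the other classes compared, from 2.41 in pericytes to 3.67 in venous cells, where 0 members passed. The part of immediate early genes in the result was not tested.

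In the other classes 0 members passed between the ages by edgeR. In arterial cells this stood beside 0.466% of all genes called, 1 member at an unadjusted p under 0.05 and 0 by DESeq2, and in venous cells beside 2.43%, 3 and 0. In smooth muscle cells it stood beside 0.195%, 1 and 0, and in pericytes beside 0.797%, 3 lower and 0. Pericytes with few endothelial marker UMIs gave 0 as well, beside 0.251% of genes called and 1 member at an unadjusted p under 0.05. Microglia had a median of 0.39, with 0 members past the adjusted threshold beside 1.96% of all genes. At an unadjusted p under 0.05 26 members were higher in microglia, and DESeq2 called 2. Rpl13a again had the largest difference there, 0.90 (edgeR adjusted p = 0.0907). The shares of all genes in this paragraph are those past the adjusted threshold by edgeR. None is given for the unadjusted and DESeq2 counts.

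Whether the class differences themselves changed with age was tested as an interaction. Shares of all genes are given at the adjusted threshold only, also where members are counted at an unadjusted p. The smooth muscle over capillary difference was smaller at 12 than at 3 months for 57 of 80 members, with a median of -0.54 on the log2 scale and 4.05% of all genes lower. Rpl23a at -0.78, Rps27l at -0.71 and Rps27 at -0.69 were lowest. For arterial over capillary cells 9 members were lower (among them Rps27l, Rpl23a, Rpl31, Rpl9, Rpl27a, Rps15, Rps27 and Rpl15), beside 2.29% of all genes, and for venous over capillary cells 1, Rps27l at -0.62, beside 5.61%. For microglia over capillary cells 0 passed by edgeR and by DESeq2, with 1 higher and 2 lower at an unadjusted p under 0.05 and 8.52% of all genes called. Without the cluster led by Lars2 these counts were 0 for smooth muscle (1 lower at an unadjusted p under 0.05, and 0.548% of all genes called by edgeR), 0 for arterial (5 higher, 0.111%) and 0 for venous cells (15 higher, 0.771%), whereas for microglia 33 members were higher at 12 months, with a median of 0.48 and 1.86% of all genes higher.

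Other genes of translation were read in the same tests. In venous cells 20 of 21 elongation factor and ribosome-associated genes were higher than in capillary cells and 0 lower, with a median of 0.57, where 21.7% of all genes were higher, among them Eef1a1, which brings aminoacyl-tRNA to the ribosome, at 1.02 (edgeR adjusted p = 5.45e-09) and Eef1b2, its exchange factor, at 1.01. Of 28 initiation factor genes 8 were higher and 1 lower (median 0.15), of 36 ribosome biogenesis genes 13 and 2 (median 0.20), and of 9 snoRNA host genes 7 and 1 (median 0.43), with Gas5 at 1.04 and Zfas1 at 0.91. Mitochondrial ribosomal protein genes gave 21 higher and 0 lower of 78 (median 0.18). The immediate early genes were higher in 21 of 21, with a median of 0.92. The 8 of 28 initiation factor genes and 21 of 78 mitochondrial ribosomal protein genes higher lie near the share of all genes higher. The 1 and 0 lower of these lists stand beside 21.0% of all genes lower. When the cluster led by Lars2 was left out, 15 elongation genes were higher and 0 lower (median 0.31), 7 and 7 initiation factor genes (0.01), 4 and 3 biogenesis genes (0.07), 3 and 1 snoRNA host genes (0.11), 7 and 24 mitochondrial ribosomal protein genes (-0.13) and 18 and 0 immediate early genes (0.68), where 22.0% of all genes were higher. No share of all genes lower is given for that setting, so its lower counts have no background here. Differences between lists were not tested.

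In the remaining classes the elongation list had 13 higher and 0 lower of 21 in arterial cells, 11 and 1 in smooth muscle cells, 2 and 0 in pericytes and 7 and 8 in microglia. The shares of all genes that were higher are 22.5%, 31.3%, 16.5% and 32.6% in the same order, and those lower 21.5%, 33.5%, 15.1% and 34.3%. Leaving out the cluster led by Lars2 these counts were 4 and 5 in arterial cells, 10 and 3 in smooth muscle cells, 2 and 10 in pericytes and 2 and 11 in microglia. Of all genes, 19.4%, 31.6%, 16.7% and 35.1% were then lower in the same order. Higher were 20.5% in arterial cells, 31.0% in smooth muscle cells and 34.0% in microglia. Mitochondrial ribosomal protein genes gave 20 and 1 of 78 in arterial cells and 48 and 1 of 77 in smooth muscle cells, where the genes encoded in the mitochondrial genome were also higher (13 of 13, median 1.12). In arterial cells 12 of 13 of the latter were lower. When that cluster was left out, mitochondrial ribosomal protein genes gave 2 higher and 33 lower in arterial cells and 28 and 7 in smooth muscle cells, and those of the mitochondrial genome 13 of 13 lower and 13 of 13 higher. In microglia 18 of 35 biogenesis genes were higher and 6 lower (15 and 8 without that cluster). Among the former were Gnl3, a nucleolar GTPase, at 2.04 and Fbl, the rRNA methyltransferase fibrillarin, at 1.35.

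The composition of the ribosomal protein RNA was otherwise alike between classes. The rank of the 81 members by level correlated with a Spearman coefficient of 0.77 to 0.99 between pairs of classes, which share libraries and gene-specific capture. Highest were erythroid with capillary (0.993), erythroid with pericyte (0.992) and pericyte with capillary cells (0.990), classes that all carried endothelial markers. The part of endothelial RNA in these was not tested. Microglia with capillary cells gave 0.868, and T and NK cells with choroid plexus 0.772, the lowest. The small subunit made up 42.8% of member UMIs in capillary cells, 44.9% in arterial, 44.4% in venous and 47.1% in B cells. Over the 61 class and library sums, the genes outside the list whose log2 CPM followed the summed members most closely, of 3195 with a mean of at least 50 CPM, were Eef1b2 (Pearson r 0.966), Fau, which encodes a further small subunit protein fused to a ubiquitin-like protein (0.930), Snrpg (0.915), Nsa2 (0.865), Rpl36al (0.844), Llph (0.841), H2afj (0.840), Eef1g (0.836), Ptprcap (0.835) and Rack1 (0.833). Without the lymphocyte sums, over 52 sums, Eef1b2 stayed at 0.928 and Ptprcap, a lymphocyte gene, fell to 0.0718. The sums share animals and depth, so these coefficients are a description.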

How the data were processed

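The authors deposited 1 table of raw UMI counts per library, counted with Cell Ranger on build mm10 per the submitters' processing notes (version 4.0.0 in 3 files and 6.1.1 in 4, per the file headers). The strandedness and the transcript end that was read were not stated by the sources at hand. The members and the gene lists were chosen with earlier results of these data known. Barcodes with at least 500 genes and at most 15% mitochondrial UMIs were kept, and doublets were called per library with Scrublet at 0.8% per 1000 barcodes (127 to 793 removed). Cells were integrated and clustered with Seurat 5.3.0 (2000 variable features without ribosomal protein, mitochondrial and hemoglobin genes, 30 components, resolution 0.5) and named where at least 3 markers of a class were raised 2-fold.

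Counts were summed per class and library with at least 20 cells and tested with edgeR 4.0.16 (filterByExpr, TMM, quasi-likelihood, Benjamini-Hochberg over all genes tested, threshold 0.05) in R 4.3.3. Class comparisons had the library as a block, ages were compared with 3 against 4 animals, and the change of a class difference with age was fitted over all sums. CPM scale each sum's UMIs to one common total. Genes were named by rule: in each comparison the 5 highest and 5 lowest members by log2 difference (3 between ages) above 50 CPM, the 6 members with most UMIs, those at the 100 UMI limit, the lists of paralogs, parents, stalk and Mdm2-binding members, up to 3 genes of each other list, and the 10 genes most alike by log2(CPM + 1); other names were chosen after their values were seen. A few members named by the rule are not reported here. Alternatives covered scaling, filters, DESeq2 1.42.0, doublets, cell filters, clustering, matched or thinned UMIs, each library left out, and, chosen after seeing the data, the capillary class without the cluster led by Lars2 or widened by unnamed clusters, and pericytes with few endothelial markers. The tests were checked on simulated counts. Replicate numbers in the labels name separate animals and do not pair the ages. Fewer cells of a kind and less RNA per cell cannot be told apart from sums alone, so UMIs per cell are given. UMI totals limit the precision of low members.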

Additional observations from a re-analysis of the deposited data

Results flagged for a closer look

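Of 110 groups of 4 libraries checked, 3 had a library apart from the other 3 by Dixon's gap over range, where chance flags about 1 in 20 groups. In arterial cells Rpl7 was low in 3-month library 2, at 826.3 CPM, and Rplp2 was high in 3-month library 1, at 1236 CPM. In microglia Rpl38 was high in 3-month library 1, at 1282 CPM. The difference between a class and capillary cells changed with age in a test of the interaction (edgeR, adjusted p under 0.05) for 1 member in venous cells, 9 in arterial cells and 57 in smooth muscle cells, all of them smaller at 12 months. Age, index type and depth cannot be told apart in these. Without the capillary cluster led by Lars2, which held 10.7% to 17.0% of capillary cells at 12 months and 46.8% to 54.7% at 3 months, the counts were 0, 0 and 0.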

How the results depend on the processing

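Counts are of members past an adjusted p of 0.05 in the direction of the main result, with those in the opposite direction in brackets. In the class comparisons the replicate block is the library, which pairs the class sums of the same animal. For venous over capillary cells (79) every alternative gave 75 to 80 except the sum of members as library size, with 16 [15]. Leaving out 1 library gave 79 to 80. For arterial over capillary cells (59) the count was 15 [6] with the sum of members as library size, 11 without the replicate block, 26 with cells matched on UMIs, 7 [2] with the 12-month libraries only, 9 [15] without the cluster led by Lars2 and 21 [2] with the wider capillary class, and 43 to 65 with 1 library left out. For smooth muscle over capillary cells (47) it was 26 with total UMIs (median of all genes -0.27), 31 with totals without mitochondrial, hemoglobin and member genes (-0.19), 20 [7] with the sum of members, 31 with matched cells, 75 and 18 [2] with the 3-month or 12-month libraries only, 21 [9] without the cluster led by Lars2 and 27 [2] with the wider class, and 36 to 61 with 1 library left out.

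For pericyte over capillary cells (4) it was 0 with no filter on low counts, 7 with sums thinned to the smallest, 8 with at least 1000 genes per cell, 25 [2] without integration, 0 without the replicate block, 0 [4] with matched cells, 75 with the 3-month and 0 [24] with the 12-month libraries only, 0 [61] without the cluster led by Lars2, 0 [5] with the wider class and 0 [75] with few endothelial markers, and 1 to 7 with 1 library left out. For microglia over capillary cells (23 [14]) it was 15 [16] with total UMIs (median of all genes -0.12), 14 [21] with the other totals (-0.15), 15 [16] with no filter, 13 [15] without integration, 12 [5] without the replicate block, 11 [6] with the 12-month libraries only, 8 [40] without the cluster led by Lars2 and 13 [37] with the wider class, and 20 to 22 with 1 library left out. For pericyte over smooth muscle cells (66 lower) it was 13 [4] with total UMIs, 18 [2] with the other totals (median of all genes 0.25), 11 [7] with the sum of members, 8 [2] with thinned sums and 27 without the replicate block, and 59 to 71 with 1 library left out.

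For the ages in capillary cells (9) it was 38 with DESeq2, 0 with the sum of members as library size or without integration, 4 with at least 50 CPM or at least 1000 genes per cell, 5 with doublets kept or with cells of 2000 to 8000 UMIs, 15 at resolution 1.0, 2 with the replicate block, and 0 without the cluster led by Lars2 or with the wider class, and 0 to 56 with 1 library left out. In venous cells (0) leaving out 1 library gave 0 to 1. In microglia (0) DESeq2 gave 2, no filter 1, thinned sums 1 and cells of 2000 to 8000 UMIs 8, and leaving out 1 library 0 to 2. The change of the venous difference with age (1) was 16 with DESeq2, 0 without the cluster led by Lars2 or with the wider class and 1 to 7 with 1 library left out. The arterial one (9) was 40 with DESeq2, 3 with no filter, 0 without the cluster led by Lars2 or with the wider class, and 0 to 5. The smooth muscle one (57) was 35 with no filter, 0 without the cluster led by Lars2 or with the wider class, and 24 to 52. The mean share of pericytes (8.79%) was 6.81% as a mean over cells and 7.01% in cells thinned to 1000 UMIs. For moves with the capillary or pericyte class the cells compared differ by construction, and for the others the cause was not tested. For the ages, the replicate block instead pairs libraries by a number that marks separate animals, and it changed no other count of the ages.

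Single members turned direction as follows, in log2. Leaving out the Lars2-led cluster, venous Rps27l was -0.047, arterial Rpl22 -0.21, Rplp0 -0.14, Rplp1 -0.0165 and Rps27l -0.36, smooth muscle Rpl11 -0.33, Rps19 -0.28 and Rps27 -0.22, pericyte Rpl10 -0.0154, Rpl22 -0.34, Rplp0 -0.33, Rps27 -0.28, Rps27l -0.21 and Rpsa -0.038, and the arterial change with age 0.0563 for Rps27 and 0.0522 for Rps27l. With few endothelial markers, pericyte over capillary Rpl22 was -1.02, Rpl23a -0.88, Rpl7a -0.35, Rplp0 -0.73, Rplp2 -0.56, Rps27 -0.71 and Rpsa -0.20, and pericyte over smooth muscle Rpl38 -1.05. With the 12-month libraries only, venous Rps27l was -0.022 and pericyte Rpl23a -0.0043, and with the 3-month ones pericyte Rpl27a was 0.22, Rplp1 0.25 and Rps12 0.23. Matched cells gave pericyte Rpl23a -0.22, and no integration gave Rplp2 -0.17 between ages in capillary cells. For pericyte over smooth muscle cells, total UMIs gave Rps29 0.22. Members with under about 50 CPM in the shallow libraries are limited by counting error.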

Other observations

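Clusters that carried markers of several classes, or of none, were left out of the comparisons, and their member share is given here. A cluster led by Lyz2 and the antigen presentation genes Cd74 and H2-Eb1 had 18.5% ± 3.15 of its UMIs in ribosomal protein genes (SD, n = 3 libraries, all of 12 months), above the microglia of each of those libraries. Endothelial cells led by the interferon-induced Ifit3, Ifit2 and Ifit1 had 9.36% ± 0.880 (SD, n = 7). Those led by the fenestration gene Plvap and by Igfbp3 had 10.6% ± 1.59 (SD, n = 7), and those led by Apln, Kit and Fscn1, genes of sprouting endothelium, 10.7% ± 1.90 (SD, n = 5). The cluster led by Cyp2e1, Wnt5a and Flrt2, which raised venous and capillary markers together, had 10.7% ± 1.14 (SD, n = 7). This mean lay between those of the capillary and the venous class, and within the library range of the larger capillary cluster. None of these differences was tested.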
